A study of Mus musculus with 6 samples.

Results

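The cytochrome P450 genes of families 1 to 4 are described here in the terminal ileum of mice with and without necrotizing enterocolitis (NEC), an inflammatory and necrotizing disease of the newborn bowel. The genes were chosen by name alone, as those whose symbol is Cyp, a family number of 1 to 4, a subfamily letter and a gene number. This rule found 75 genes among the 55487 gene identifiers of the expression table. Expression was measured by RNA sequencing in 3 NEC libraries and 3 control libraries of C57BL/6 terminal ileum at postnatal day 9. NEC was induced with hyperosmolar formula by gavage, hypoxia in 5% O2 for 10 min, 3 times a day for 4 days, and oral lipopolysaccharide at 4 mg/kg/day on postnatal days 6 and 7. The control labels carry this protocol text too, so how the control pups were fed and housed is not given in the sources used here. Separate animals are not named for the libraries, so each p-value measures the spread between libraries. Among libraries of the same sex (given below) this spread may be technical.

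Cytochromes P450 are heme enzymes that insert an oxygen atom into their substrates with electrons passed on by NADPH-cytochrome P450 reductase. Families 1 to 3 are best known for the oxidation of drugs, toxins and steroids, and several members of families 2 and 4 act on arachidonic acid, leukotrienes and other fatty acids. In the gut the mature enterocyte carries most of these enzymes. Many members are switched on by receptors that sense foreign compounds and lipids: the aryl hydrocarbon receptor (Ahr) for family 1, CAR (Nr1i3) and PXR (Nr1i2) for Cyp2b and Cyp3a genes, and PPAR alpha (Ppara) for Cyp4a genes.

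The NEC libraries held an estimated 16.9, 18.2 and 18.6 M fragments, against 15.6, 15.2 and 16.2 M in control libraries. The correlation of log2 values across genes was 0.932 to 0.972 between NEC libraries and 0.975 to 0.978 between control libraries. The median SD of log2 values within a group was 0.211 in NEC and 0.0936 in controls, and the fit pooled the groups. NEC library 1 stood apart from NEC libraries 2 and 3, which also differed from the other 4 libraries in RNA of the sex chromosomes. Xist had 130 and 139 FPKM (fragments scaled by transcript length and library size) in NEC 2 and 3. It had 0.177 FPKM in NEC 1 and 0.0840 to 0.221 FPKM in controls. The Y-linked gene Ddx3y had 0.0119 and 0.00578 FPKM in NEC 2 and 3. Its level was 6.78 FPKM in NEC 1 and 7.55 to 9.89 FPKM in controls. NEC 2 and 3 thus carried female RNA, and NEC 1 and all controls male RNA. Sex and group are therefore partly confounded, and their parts in a difference cannot be told apart. Results were therefore also computed with NEC 1 as the only NEC library. All 7 enterocyte markers tested were called higher in NEC, with log2 changes from 0.26 (Anpep) to 3.44 (Fabp2). Their summed level was 10637 to 13372 FPKM in NEC libraries against 2488 to 3056 FPKM in control libraries. Most of it came from Apoa4, at 10333, 10323 and 8174 FPKM in NEC and 1678, 1855 and 2178 FPKM in controls. The 7 general epithelial markers summed to 1257 to 1490 FPKM in NEC and 1137 to 1252 FPKM in controls, with Vil1 called higher (log2 change 0.75), Krt19 called lower (log2 change -1.40) and the other 5 not called. Gata4, which is normally limited to the upper small intestine, had 7.96, 7.28 and 3.74 FPKM in NEC libraries and 0.184, 0.0852 and 0.0622 FPKM in control libraries. It was called higher with limma (log2 change 2.67, adjusted p = 0.00224). Genes were tested if their mean over the 6 libraries was at least 1 FPKM, and Gata4 met this only through NEC. Its call was therefore partly fixed by the filter. The summed upper intestine markers, 2 of 4 called higher and 1 lower, had 148 to 274 FPKM in NEC and 73.5 to 74.9 FPKM in controls. Fabp1, called higher beside Gata4, also passed the filter only through NEC, with a mean of 0.496 FPKM in controls. Of 6 terminal ileum markers, summing to 78.6 to 111 FPKM in NEC and 42.8 to 51.1 FPKM in controls, the bile acid exporter genes Slc51a and Slc51b were called higher (log2 change 0.94 and 1.98) and Fgf15 lower (log2 change -2.14). Fgf15 passed the filter only through controls, with a mean of 0.627 FPKM in NEC. The bile acid carriers Slc10a2 and Fabp6 were low in nearly all libraries, with Slc10a2 at 1.49, 1.01 and 2.30 FPKM in NEC and 1.31, 1.93 and 2.21 FPKM in controls, and Fabp6 at 0.123, 0 and 10.4 FPKM in NEC and 1.20, 1.23 and 2.45 FPKM in controls. The smooth muscle and stroma markers summed to 195 to 801 FPKM in NEC and 1075 to 1283 FPKM in controls, with 3 of 7 called lower. The 8 hepatocyte markers summed to 194 to 326 FPKM in NEC and 373 to 413 FPKM in controls, most of it from Cps1, which the gut also expresses, and 3 of the 4 tested (Ttr, Serpina1a and Fgb) were called lower. Serpina1a passed the filter only through controls, with a mean of 0.702 FPKM in NEC. Of the defining hepatocyte genes, Ahsg was at 0 in all libraries and Alb was at 0, 0.0430 and 0 FPKM in NEC and 0.0749, 0.103 and 0 FPKM in controls. The part of these markers in the P450 values was not tested, and in such bulk samples fewer cells of a type and less RNA per cell cannot be told apart.

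Of the 75 genes, 47 had a value above 0 in at least 1 library, and 28 were listed at 0 in all 6. A mean of at least 1 FPKM over the 6 libraries, which was also the filter for testing, was met by 21 genes. These were 1 of 3 genes of family 1, 12 of 48 of family 2, 2 of 7 of family 3 and 6 of 17 of family 4. In the largest subfamily, Cyp2c, 4 of 15 genes passed and 7 were at 0 throughout. In Cyp4f, 5 of 9 passed. None of the 5 Cyp2b, 5 Cyp4a, 4 Cyp2a and 2 Cyp1a genes passed, groups that hold the textbook inducible genes of the liver. The members just inside the filter were Cyp2c67 with a mean of 1.22 FPKM and Cyp2c40 with 1.19 FPKM, and those just outside were Cyp4v3 with 0.944 FPKM and Cyp2c23 with 0.925 FPKM. Of the 21 genes, 18 had a mean of at least 1 FPKM in each group. Cyp2c65, Cyp3a25 and Cyp4f14 passed only through their level in NEC, so their difference from controls was partly fixed by the filter.

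**Figure D1:**
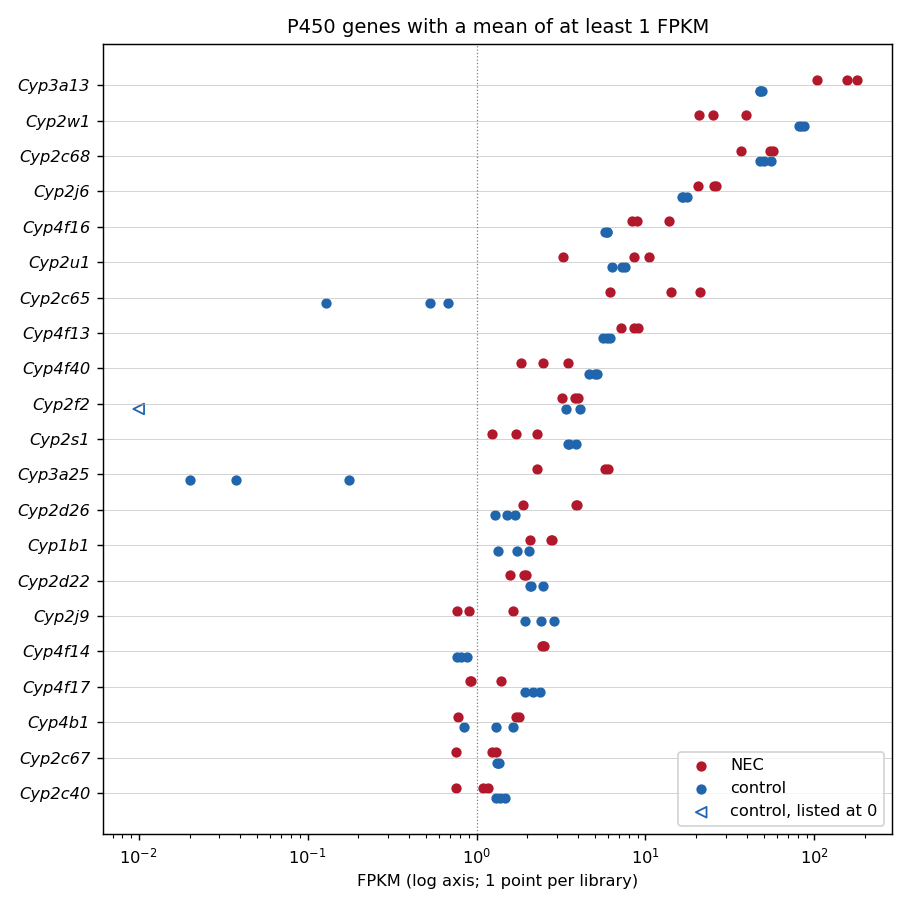
Level in FPKM (log axis) of the 21 tested P450 genes, 1 point per library, with the 3 NEC libraries (red) above the 3 control libraries (blue) in each row. Cyp3a13 reached 178 FPKM in NEC libraries against at most 49.1 FPKM in controls, Cyp2w1 lay lower in every NEC library, and the open triangle marks the control library in which Cyp2f2 was listed at 0.

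The summed level of the 75 genes was 323, 353 and 291 FPKM in NEC libraries, against 250, 254 and 249 FPKM in control libraries. The families contributed differently in the groups. Family 3 summed to 180, 162 and 110 FPKM in NEC and 48.2, 49.1 and 47.6 FPKM in controls, while family 2 summed to 117, 157 and 149 FPKM in NEC and 177, 179 and 175 FPKM in controls. Family 3 thus held 55.9%, 45.9% and 37.8% of the sum in NEC libraries, against 19.3%, 19.3% and 19.2% in control libraries. Family 4 had 22.7, 31.8 and 28.9 FPKM in NEC and 23.3, 23.8 and 24.2 FPKM in controls, and these groups overlapped. A small number of genes carried most of the sum. Cyp3a13, Cyp2w1, Cyp2c68 and Cyp2j6 held 80.7%, 74.3% and 74.8% of it in NEC libraries and 81.1%, 79.0% and 78.8% in controls. Cyp3a13 alone held 55.1%, 43.8% and 35.4% in NEC and 19.2%, 19.3% and 19.1% in controls, and Cyp2w1 held 6.41%, 7.11% and 13.6% in NEC and 33.4%, 34.0% and 32.7% in controls. The most abundant P450 gene was therefore Cyp3a13 in each NEC library and Cyp2w1 in each control library, on a scale corrected for transcript length.

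**Figure D2:**
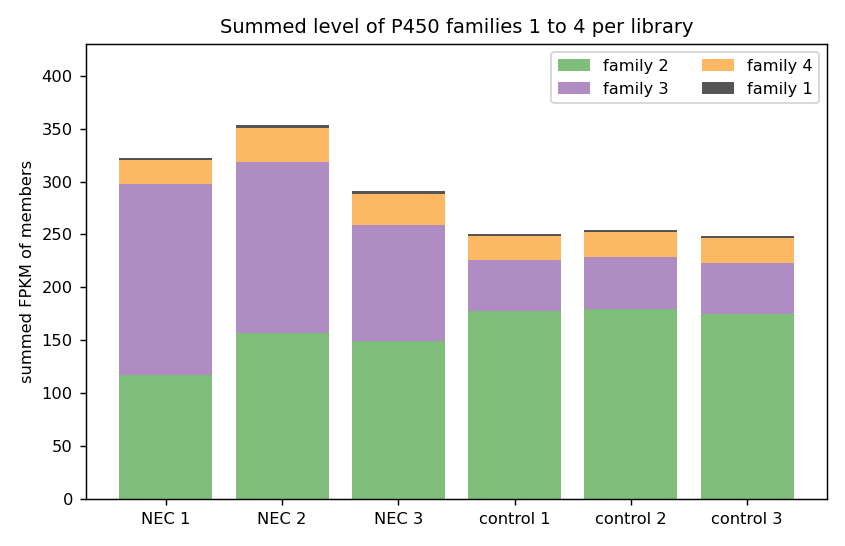
Summed FPKM of the genes of families 1 to 4 in each NEC library (left) and control library (right), stacked by family. Family 3 reached 110 to 180 FPKM in NEC libraries against 47.6 to 49.1 FPKM in controls, and family 2 reached 117 to 157 FPKM in NEC against 175 to 179 FPKM in controls.

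In the fit across all 15806 tested genes (limma on log2(FPKM + 1), called at a Benjamini-Hochberg adjusted p under 0.05), 8 of the 21 P450 genes were called higher in NEC, 5 lower and 8 not called. Over all tested genes 7.69% were called higher, 30.6% lower and 38.2% either way. With TMM scaling these shares were 16.8% higher and 14.3% lower, beside 9 P450 genes higher and 4 lower. Among the 18 P450 genes averaging 1 FPKM or more in each group, 5 were called higher, 5 lower and 8 not called, and the other 3, which the filter let through on their NEC level, were all called higher. The median log2 change was 0.09 over the 21 P450 genes and -0.26 over all tested genes. All 3 NEC values lay above all control values for 9 of the P450 genes, against 11.8% of all tested genes, and below them for 8, against 47.3% of all tested genes. The median of 0.09 and the count of 9 include Cyp2c65, Cyp3a25 and Cyp4f14. As the filter let these through on their NEC level, both values were partly fixed by it. The shift of all genes depended on scaling, as its median was 0.01 with TMM scaling, and each of the 13 P450 calls kept its sign with TMM scaling and with quantile normalization. Cyp3a13, Cyp3a25, Cyp2c65, Cyp4f14 and Cyp2w1 kept their call in each of 17 other settings that tested them. Among them, Cyp3a25, Cyp2c65 and Cyp4f14 entered the fit only through their NEC level. For these genes the settings that keep the same filter add no support. The other 8 of the 13 called genes lost their call in at least 1 setting, most often when a control library was left out. Of these calls 8 were lost without control 1, 8 without control 2 and 7 without control 3. The share of all tested genes called fell in these fits too, from 38.2% to 10.2%, 9.40% and 17.3%, so the loss was general. A scaling that leaves out Rn7s1, the abundant 7SL RNA gene, ended the calls of Cyp2j6, Cyp4f16, Cyp4f13 and Cyp2d26, and testing without a filter on low values ended those of Cyp2d26 and Cyp2j9. With NEC 1 as the only NEC library, whose spread is then taken from the controls, 59.5% of all tested genes were called, so that calls in that fit add no support. The P450 genes called there included 12 of the 13, the exception being Cyp4f13.

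**Figure D3:**
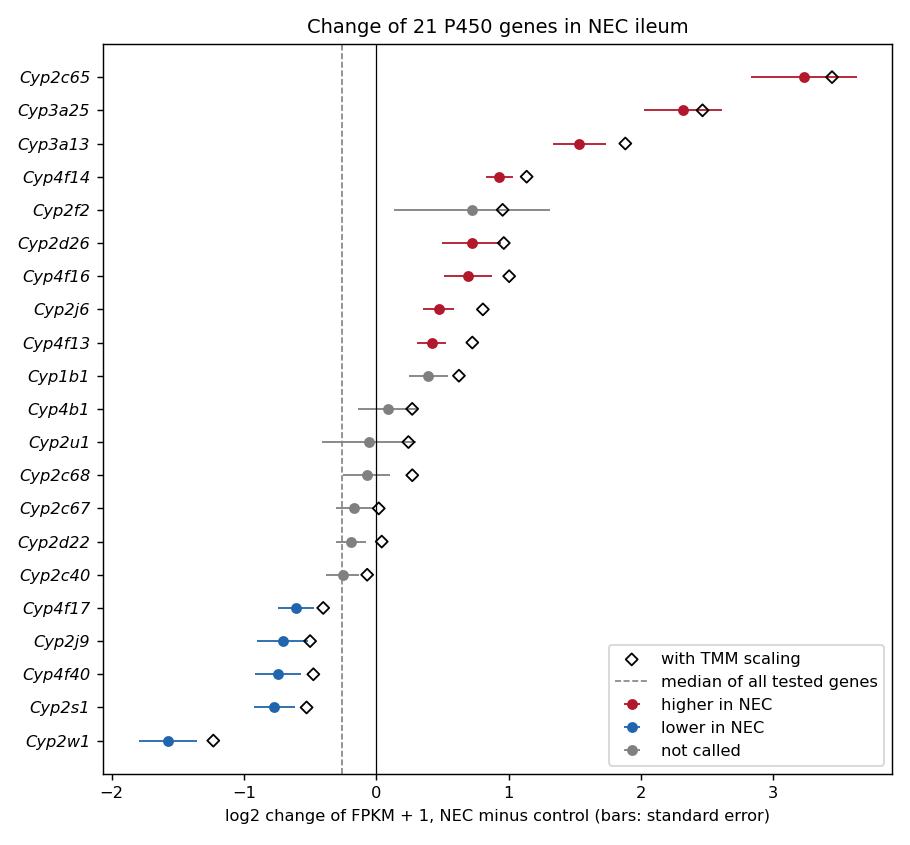
Log2 change of FPKM + 1 (NEC minus control) of the 21 tested P450 genes, with standard errors as bars, and the same change after TMM scaling as open diamonds. Cyp2c65, Cyp3a25 and Cyp3a13 lie farthest to the right and Cyp2w1 farthest to the left. The dashed line is the median of all tested genes, -0.26.

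The Cyp3a genes, which encode the main drug-oxidizing P450 enzymes of liver and gut, lie between positions 137892932 and 146113287 of chromosome 5 (mm10). Cyp3a13, an intestinal member, had 178, 155 and 103 FPKM in NEC libraries, against 48.0, 49.1 and 47.6 FPKM in control libraries. Every NEC library was above every control, with the NEC libraries themselves spread widely. The mean was 145 ± 38.3 FPKM in NEC and 48.2 ± 0.768 FPKM in controls (SD, n = 3 each), a ratio of 3.01, and the gene was called higher with limma (log2 change 1.53, SE 0.20, adjusted p = 0.00544). Cyp3a25 had 2.29, 5.97 and 5.73 FPKM in NEC and was near 0 in controls, with 0.176, 0.0201 and 0.0377 FPKM. It was called higher (log2 change 2.32, SE 0.29, limma adjusted p = 0.00523). Of the 50-base stretches of its transcripts, 25.2% also occur in Cyp3a59, so reads could be split between the 2 genes, whereas Cyp3a13 shares none with another gene. Cyp3a11, the chief Cyp3a enzyme of liver and a standard PXR target, was not abundant: it had 0.344, 0.942 and 0.979 FPKM in NEC and was listed at 0 in all 3 controls.

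The sequences before the start sites of these 2 genes are shown because both rose, and one of them holds the core of the nuclear receptor motif. All sequences are the 250 bases before a RefSeq start (GRCm38.p6), written 5′ to 3′ on the strand of the gene. Capitals mark 5 motifs, searched as exact strings on both strands. They are GCGTG (xenobiotic response element core), AGGTCA (core of a nuclear receptor element) and AGATAA (bound by factors of the GATA family). The others are GTTAAT (part of the HNF1 motif) and TATAAA (bound by TBP). Other forms of these sites were not searched. Cyp3a13 is given at chr5:137921620-137921869 and Cyp3a25, from the later of 2 listed starts, at chr5:146009619-146009868, both on the minus strand.
Cyp3a13: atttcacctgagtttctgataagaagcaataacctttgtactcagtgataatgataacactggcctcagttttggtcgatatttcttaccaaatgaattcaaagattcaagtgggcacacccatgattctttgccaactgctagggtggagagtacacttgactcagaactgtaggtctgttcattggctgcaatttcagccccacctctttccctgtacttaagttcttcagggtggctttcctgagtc
Cyp3a25: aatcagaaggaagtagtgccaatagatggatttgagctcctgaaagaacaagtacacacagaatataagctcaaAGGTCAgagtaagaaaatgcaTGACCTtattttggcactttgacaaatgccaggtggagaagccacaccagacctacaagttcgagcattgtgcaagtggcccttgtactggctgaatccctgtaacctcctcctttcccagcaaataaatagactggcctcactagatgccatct
The Cyp3a25 window holds AGGTCA and, farther on, its reverse complement TGACCT, and the Cyp3a13 window holds none of the 5 exact strings. The Cyp3a13 window does hold TGATAA, which differs from AGATAA in its first base, so the search cannot exclude a GATA site there. AGGTCA occurs in 14.0% of the 32851 promoter windows of all genes and in 2 of the 18 tested P450 genes with an entry. Here and below, a P450 gene is counted if any of its windows holds the motif. Such counts are not a like measure to shares of single windows.

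The Cyp2c genes, whose gut members act on arachidonic and linoleic acid, lie on chromosome 19 between positions 39007019 and 44029208. Cyp2c65 had 14.1, 21.1 and 6.20 FPKM in NEC libraries, against 0.531, 0.681 and 0.128 FPKM in control libraries. The lowest NEC library was well above the highest control, and the estimated fragments behind the values were 459, 738 and 223 in NEC and 16, 20 and 4 in controls. Its mean was 13.8 ± 7.44 FPKM in NEC and 0.447 ± 0.286 FPKM in controls (SD, n = 3 each), a ratio of 30.8, and its log2 change of 3.23 (SE 0.40, limma adjusted p = 0.00508) was the largest among the 21 tested P450 genes. Its 50-base stretches are shared with Cyp2c66 to 20.2%. Its neighbours Cyp2c55 and Cyp2c66, named here after their values were seen, were also higher in each NEC library than in any control although their means were below 1 FPKM. Cyp2c55 had 1.93, 1.60 and 1.10 FPKM in NEC and 0.0962, 0.132 and 0.0618 FPKM in controls, and shares 0.514% of its stretches. Cyp2c66 had 1.16, 0.857 and 0.220 FPKM in NEC and 0, 0.0269 and 0.126 FPKM in controls, and did not pass the test without a filter (limma adjusted p = 0.0695).

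The other 3 Cyp2c genes above the filter did not pass the test. Cyp2c68, the most abundant of the subfamily, had 36.7, 56.6 and 54.8 FPKM in NEC libraries and 55.0, 47.9 and 50.4 FPKM in controls, with overlapping groups (log2 change -0.07, SE 0.18, limma adjusted p = 0.759; 0.27 with TMM scaling). Cyp2c67 had 0.751, 1.303 and 1.24 FPKM in NEC and 1.33, 1.33 and 1.35 FPKM in controls, and Cyp2c40 had 0.757, 1.16 and 1.09 FPKM in NEC and 1.47, 1.37 and 1.302 FPKM in controls. Both lay lower in every NEC library without passing the test (limma adjusted p = 0.363 for Cyp2c67 and 0.143 for Cyp2c40), and with quantile normalization their log2 change was 0.22 for Cyp2c67 and 0.14 for Cyp2c40. The values of these 3 genes are uncertain as single-gene levels, since 43.3% of the 50-base stretches of Cyp2c68, 52.8% of those of Cyp2c67 and 60.3% of those of Cyp2c40 occur in another gene too. The window of Cyp2c65 is shown because this gene had the largest log2 change of FPKM + 1 among the P450 genes tested. By ratio of means Cyp3a25 changed more, at 59.9, from a control level near 0. The Cyp2c65 window lies at chr19:39060756-39061005 on the plus strand.
Cyp2c65: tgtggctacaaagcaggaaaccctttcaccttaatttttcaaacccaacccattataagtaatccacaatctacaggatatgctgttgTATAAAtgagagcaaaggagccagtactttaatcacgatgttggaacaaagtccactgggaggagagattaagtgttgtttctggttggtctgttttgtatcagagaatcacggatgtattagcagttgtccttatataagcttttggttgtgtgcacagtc
TATAAA is the only motif of the 5 in it, starting at position -162 from the start site, and is found in 12.4% of all promoter windows.

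Cyp2w1, whose human counterpart is known from fetal gut and colon tumours, moved the other way. It had 20.7, 25.1 and 39.5 FPKM in NEC libraries, against 83.5, 86.4 and 81.2 FPKM in control libraries. The highest NEC library was below the lowest control by a wide margin. The mean was 28.4 ± 9.83 FPKM in NEC and 83.7 ± 2.61 FPKM in controls (SD, n = 3 each), so the control mean was 2.94 times the NEC mean, and the gene was called lower (log2 change -1.58, SE 0.22, limma adjusted p = 0.00658). Its stretches are shared with no other gene. The window at chr5:139352366-139352615, plus strand, is shown because this was the fall of greatest size among the tested P450 genes.
Cyp2w1: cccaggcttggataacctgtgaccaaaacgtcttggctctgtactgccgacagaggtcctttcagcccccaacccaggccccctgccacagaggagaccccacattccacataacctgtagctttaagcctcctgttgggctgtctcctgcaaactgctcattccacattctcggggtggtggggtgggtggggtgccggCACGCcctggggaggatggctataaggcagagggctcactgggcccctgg
It holds CACGC, the reverse complement of GCGTG, at position -50. GCGTG on either strand occurs in 28.2% of all promoter windows, in 2 of the 8 P450 genes called higher and in 2 of the 4 called lower that have an entry.

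Cyp2s1, an epithelial enzyme that dioxin can induce, had 1.23, 1.70 and 2.28 FPKM in NEC libraries and 3.53, 3.87 and 3.46 FPKM in controls. It was lower in each NEC library (log2 change -0.77, SE 0.16, limma adjusted p = 0.0147), though the call was lost without control 1 or control 2, with an adjusted p of up to 0.0627. The Cyp2j genes, relatives of the human arachidonic acid epoxygenase CYP2J2, lie on chromosome 4 and differed in direction. Cyp2j6 had 25.4, 26.1 and 20.3 FPKM in NEC and 16.5, 17.5 and 16.7 FPKM in controls, and was called higher (log2 change 0.47, SE 0.12, limma adjusted p = 0.0230). Cyp2j9 had 0.764, 0.902 and 1.65 FPKM in NEC and 1.93, 2.87 and 2.41 FPKM in controls, and was called lower (log2 change -0.71, SE 0.19, limma adjusted p = 0.0293). Both calls were lost without NEC 2 or any single control, with an adjusted p of up to 0.0838 for Cyp2j6 and up to 0.101 for Cyp2j9. That of Cyp2j9 was lost without NEC 1, with TMM scaling (adjusted p = 0.0682) and with quantile normalization (adjusted p = 0.145) too. Cyp2j13, named after its values were seen, had 0, 0.0286 and 0.0650 FPKM in NEC, against 0.699, 0.672 and 0.749 FPKM in controls.

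Cyp2u1, which hydroxylates long-chain fatty acids, had 3.26, 8.50 and 10.5 FPKM in NEC libraries and 7.55, 6.36 and 7.29 FPKM in controls. NEC 1 lay below all controls and NEC 2 and 3 above them, so that the log2 change of -0.06 (SE 0.35, limma adjusted p = 0.910) became 0.38 without NEC 1 (adjusted p = 0.0464) and -0.92 with NEC 1 alone. Cyp2d26 had 3.88, 3.93 and 1.88 FPKM in NEC and 1.29, 1.51 and 1.70 FPKM in controls. It was called higher (log2 change 0.72, SE 0.22, limma adjusted p = 0.0440), and the call was lost without NEC 1, NEC 2 or any single control, with an adjusted p of up to 0.128. Cyp2d22, a relative of the human drug-metabolizing enzyme CYP2D6, had 1.59, 1.96 and 1.90 FPKM in NEC and 2.09, 2.48 and 2.08 FPKM in controls, and did not pass the test (limma adjusted p = 0.213). Cyp2f2, the naphthalene-oxidizing enzyme of lung club cells, had 3.80, 4.01 and 3.19 FPKM in NEC and 0, 4.08 and 3.40 FPKM in controls. Whether the 0 in control 1 is a failed estimate was not tested. The genes listed at 0 in 1 library and above 1 FPKM in the other 5 numbered 8 for control 1, 10 for NEC 1, 5 for NEC 3, 1 each for control 2 and control 3, and 0 for NEC 2. Without control 1 the log2 change of Cyp2f2 was -0.02 (limma adjusted p = 0.921).

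The Cyp4f genes, several of which inactivate leukotriene B4 or hydroxylate long-chain fatty acids, form a cluster of 8 genes on chromosome 17 between positions 32452723 and 32947402, with Cyp4f18 apart on chromosome 8. All 5 that passed the filter lie in the cluster, with 3 called higher and 2 lower in NEC. Cyp4f14 had 2.49, 2.46 and 2.45 FPKM in NEC libraries, against 0.813, 0.879 and 0.769 FPKM in control libraries. The libraries of each group lay close together, with means of 2.47 ± 0.0204 FPKM in NEC and 0.820 ± 0.0550 FPKM in controls (SD, n = 3 each), and the log2 change was 0.93 (SE 0.10, limma adjusted p = 0.00352). Cyp4f16 had 8.29, 13.8 and 8.95 FPKM in NEC and 5.90, 5.93 and 5.72 FPKM in controls (log2 change 0.69, SE 0.18, limma adjusted p = 0.0264), and shares 16.3% of its stretches with Cyp4f37. Cyp4f13 had 7.18, 8.56 and 9.04 FPKM in NEC and 5.93, 5.63 and 6.14 FPKM in controls (log2 change 0.42, SE 0.11, limma adjusted p = 0.0270). Leaving out any single control ended the calls of Cyp4f16 and Cyp4f13, with an adjusted p of up to 0.0817 for Cyp4f16 and up to 0.102 for Cyp4f13, which also lost its call without NEC 2 or NEC 3.

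The 2 Cyp4f genes called lower were of similar size in their change. Cyp4f40 had 1.84, 2.47 and 3.50 FPKM in NEC libraries and 4.60, 5.01 and 5.18 FPKM in controls (log2 change -0.74, SE 0.18, limma adjusted p = 0.0209). Cyp4f17 had 0.908, 0.922 and 1.40 FPKM in NEC and 2.16, 1.93 and 2.37 FPKM in controls (log2 change -0.61, SE 0.14, limma adjusted p = 0.0182). Neither overlapped between the groups, and both lost the call without NEC 2 or any single control. Cyp4f17 was not called with quantile normalization either (adjusted p = 0.171). Cyp4b1, a lung enzyme of fatty acid and protoxin oxidation, had 0.773, 1.71 and 1.79 FPKM in NEC and 0.838, 1.31 and 1.64 FPKM in controls and did not pass the test (limma adjusted p = 0.777). Just below the filter, Cyp4v3, counterpart of the human fatty acid hydroxylase CYP4V2, had 0.528, 0.766 and 0.690 FPKM in NEC and 1.04, 1.60 and 1.04 FPKM in controls.

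Family 1 holds the classical targets of the aryl hydrocarbon receptor. Cyp1b1, which also hydroxylates estrogens, had 2.08, 2.80 and 2.75 FPKM in NEC libraries and 1.33, 2.04 and 1.75 FPKM in controls. All NEC values were above the controls, and the test was not passed (log2 change 0.39, SE 0.15, limma adjusted p = 0.0754), although it was with TMM scaling (log2 change 0.62, adjusted p = 0.0141), quantile normalization, a scaling to protein-coding genes and sample weights, and without NEC 1. Cyp1a1 had 0.366, 0.204 and 0.239 FPKM in NEC and 0, 0.130 and 0.122 FPKM in controls, levels far below those of Cyp3a13. Its window is shown as the textbook promoter of this receptor and lies at chr9:57697363-57697612 on the plus strand.
Cyp1a1: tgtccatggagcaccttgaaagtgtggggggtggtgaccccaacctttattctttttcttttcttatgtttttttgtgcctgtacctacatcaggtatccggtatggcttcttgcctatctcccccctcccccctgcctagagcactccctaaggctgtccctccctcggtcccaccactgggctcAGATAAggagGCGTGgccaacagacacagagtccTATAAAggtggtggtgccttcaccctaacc
It holds AGATAA at position -64, GCGTG at -54 and TATAAA at -30, and the matches do not overlap. AGATAA occurs in 9.99% and GTTAAT in 6.43% of all promoter windows. Of the 18 tested P450 genes with an entry, 2 held AGATAA and 5 held GTTAAT in any of their windows, which is not a like measure.

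Below the filter, 26 genes had a value above 0 in some library. In the fit without a filter, over 33583 genes, 3 of the 26 were called higher in NEC and 1 lower, where all genes gave 3.17% higher and 15.3% lower. The 3 were Cyp2c55 (log2 change 1.20, SE 0.14, limma adjusted p = 0.0110), Cyp3a11 (log2 change 0.79, adjusted p = 0.0271) and Cyp4a10 (log2 change 0.13, adjusted p = 0.0267), and the 1 lower was Cyp2j13 (log2 change -0.73, SE 0.06, adjusted p = 0.00388). Cyp4a10, a fatty acid omega-hydroxylase and PPAR alpha target, had 0.103, 0.0770 and 0.0937 FPKM in NEC and was listed at 0 in all controls, and shares 29.8% of its stretches with some other gene, most with Cyp4a32. Cyp2b10, the standard CAR target, had 0.209, 0.265 and 0.361 FPKM in NEC and 0, 0.338 and 0.436 FPKM in controls, with overlapping groups. Cyp1a1, Cyp2a5, Cyp2b10, Cyp2c66 and Cyp2f2 were each listed at 0 in control 1 and in no other library.

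**Figure D4:**
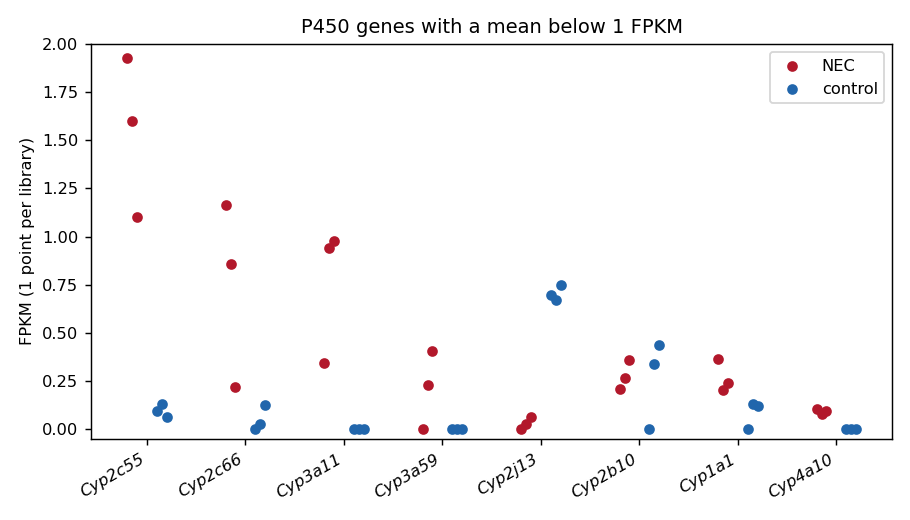
Level in FPKM (linear axis) of 8 P450 genes averaging below 1 FPKM, 1 point per library, NEC (red) left of control (blue) for each gene. Cyp2c55 reached 1.10 to 1.93 FPKM in NEC against at most 0.132 FPKM in controls, and Cyp2j13 at most 0.0650 FPKM in NEC against 0.672 to 0.749 FPKM in controls.

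Among 22 receptors and partner factors that regulate P450 genes, 19 were tested, of which 1 was called higher, 2 lower and 16 not called, with a median log2 change of -0.01. The shares over all tested genes, 7.69% higher and 30.6% lower, stand beside the counts of this list and of those that follow. Ppara, the fatty acid receptor upstream of Cyp4a genes, had 8.46, 5.95 and 6.36 FPKM in NEC libraries and 4.10, 3.94 and 4.71 FPKM in controls (log2 change 0.58, SE 0.14, limma adjusted p = 0.0231). Ahr had 3.85, 6.16 and 5.90 FPKM in NEC and 8.58, 8.30 and 8.53 FPKM in controls (log2 change -0.61, SE 0.16, limma adjusted p = 0.0279), and was not called with TMM scaling (adjusted p = 0.0794), quantile normalization (adjusted p = 0.0518) or Rn7s1 left out of the scaling (adjusted p = 0.0639). The glucocorticoid receptor gene Nr3c1 was the other called lower (log2 change -0.65, limma adjusted p = 0.0436), and the bile acid and development factor Nr5a2 did not pass the test (adjusted p = 0.0504). Nr1i2 had 81.3, 51.7 and 39.4 FPKM in NEC and 33.4, 31.2 and 33.5 FPKM in controls, all NEC above all controls, without passing the test (log2 change 0.73, SE 0.24, limma adjusted p = 0.0539). It did pass with TMM scaling (log2 change 1.08, adjusted p = 0.0464), with sample weights, without NEC 1 and without NEC 3. Nr1i3 had 3.04, 4.16 and 3.77 FPKM in NEC and 3.51, 3.60 and 3.65 FPKM in controls. Hnf4a, the master factor of hepatocytes and enterocytes, had 49.7, 72.6 and 72.4 FPKM in NEC and 63.3, 66.7 and 62.4 FPKM in controls. The groups overlapped for both genes, neither passed the test (limma adjusted p = 0.931 for Nr1i3 and 0.986 for Hnf4a), and with TMM scaling both were called higher (log2 change 0.29, adjusted p = 0.0465 for Nr1i3 and log2 change 0.34, adjusted p = 0.0454 for Hnf4a). The calls of Ppara, Ahr and Nr3c1 were lost when any single control was left out, and that of Nr3c1 without any single NEC library as well.

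Of 6 other targets of the aryl hydrocarbon receptor, 4 were tested and 2 called higher. The quinone reductase gene Nqo1, which NRF2 also drives, had 36.1, 44.6 and 45.3 FPKM in NEC libraries, against 7.34, 7.32 and 5.84 FPKM in control libraries (log2 change 2.46, SE 0.13, limma adjusted p = 0.000554). Tiparp, a member of the poly-ADP-ribose polymerase family that represses the receptor, had 16.1, 13.4 and 11.6 FPKM in NEC and 7.55, 8.61 and 8.54 FPKM in controls (log2 change 0.66, SE 0.13, limma adjusted p = 0.0145), and lost its call without control 1 or control 2. Xdh, the xanthine oxidase gene, had 55.8, 17.2 and 13.4 FPKM in NEC and 11.9, 11.6 and 12.1 FPKM in controls, with NEC 1 far above the others, and did not pass the test (limma adjusted p = 0.159), nor did Ugt1a6a (adjusted p = 0.0944). Ahrr, the receptor's repressor, was too low to be tested, with 0.394, 0.372 and 0.513 FPKM in NEC and 0.416, 0.398 and 0.434 FPKM in controls.

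Of 9 electron donors and heme carriers, 8 were tested and 4 called higher, with a median log2 change of 0.50. Por, the reductase on which all microsomal P450 enzymes depend, had 46.4, 41.8 and 30.9 FPKM in NEC libraries, against 11.8, 12.02 and 13.0 FPKM in control libraries. The groups stood far apart, with means of 39.7 ± 7.95 FPKM in NEC and 12.3 ± 0.641 FPKM in controls (SD, n = 3 each), and the log2 change was 1.60 (SE 0.16, limma adjusted p = 0.00279). Cyb5b, a cytochrome b5, had 47.8, 58.4 and 50.1 FPKM in NEC and 28.5, 27.4 and 28.6 FPKM in controls (log2 change 0.86, SE 0.10, limma adjusted p = 0.00464). The heme-binding membrane proteins Pgrmc1 (log2 change 0.52, limma adjusted p = 0.0168) and Pgrmc2 (log2 change 0.49, adjusted p = 0.0292) were called higher as well, but not when any single control was left out or Rn7s1 was left out of the scaling, with an adjusted p of up to 0.140 for Pgrmc1 and 0.184 for Pgrmc2.

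Of 14 genes of heme synthesis and breakdown, all tested, 3 were called higher, 5 lower and 6 not called. Of the 5, Ppox, Fech, Hmox2 and Blvrb lost the call with TMM scaling, quantile normalization, and Rn7s1 left out of the scaling, and without NEC 2 or any single control, which left Alas2. Alas2 averaged 0.275 FPKM in NEC and entered the fit only through its control level. For Alas2 the settings that keep the same filter add no support. Alas1, the rate-limiting enzyme of heme synthesis outside red cells, had 4.41, 4.32 and 3.90 FPKM in NEC libraries and 3.22, 3.53 and 3.17 FPKM in controls, and did not pass the test (log2 change 0.28, SE 0.10, limma adjusted p = 0.0641). It did pass with TMM scaling (log2 change 0.55, adjusted p = 0.0193), quantile normalization, a scaling to protein-coding genes and sample weights. Alas2, its red cell form, had 0.333, 0.241 and 0.252 FPKM in NEC and 2.46, 3.25 and 3.01 FPKM in controls (log2 change -1.61, SE 0.12, limma adjusted p = 0.00132). The 4 erythroid markers other than Alas2 summed to 233 to 251 FPKM in NEC and 545 to 809 FPKM in controls, with 3 called lower, and their part in the Alas2 value was not tested. Hmox1, which breaks heme down, had 13.8, 12.8 and 15.1 FPKM in NEC and 10.0, 9.53 and 10.1 FPKM in controls (log2 change 0.45, limma adjusted p = 0.0163). Cpox (log2 change 0.50, limma adjusted p = 0.0143) and Alad (log2 change 0.48, adjusted p = 0.0199), which encode steps of heme synthesis, were the others called higher. The calls of Hmox1, Cpox and Alad were lost without control 1, without control 2 and with Rn7s1 left out of the scaling, where the adjusted p was 0.136, 0.113 and 0.159, and those of Hmox1 without control 3 and of Alad without NEC 2 were lost too.

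Of 6 genes that hand over or remove the lipids handled by Cyp2c, Cyp2j and Cyp4 enzymes, 4 were tested, with 2 called higher and 1 lower. Ephx2, the soluble epoxide hydrolase that turns epoxides of arachidonic acid into diols, had 99.1, 114 and 85.1 FPKM in NEC libraries, against 21.7, 20.7 and 24.3 FPKM in control libraries. Its mean was 99.3 ± 14.3 FPKM in NEC and 22.2 ± 1.85 FPKM in controls (SD, n = 3 each; log2 change 2.10, SE 0.13, limma adjusted p = 0.000796). Aldh3a2, the fatty aldehyde dehydrogenase, had 23.6, 30.05 and 26.6 FPKM in NEC and 16.5, 16.9 and 17.6 FPKM in controls (log2 change 0.62, limma adjusted p = 0.0104), and lost its call without control 1 or 2 (adjusted p = 0.0509 and 0.0512) and with Rn7s1 left out of the scaling. Pla2g4a, the phospholipase that releases arachidonic acid, was lower, with 1.65, 2.17 and 3.08 FPKM in NEC and 6.49, 6.63 and 5.27 FPKM in controls (log2 change -1.13, SE 0.18, limma adjusted p = 0.00855). The microsomal hydrolase gene Ephx1 did not pass the test (log2 change -0.57, limma adjusted p = 0.0926).

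Of 21 P450 genes of other families, 7 were tested, with 1 called higher, 4 lower and 2 not called. Cyp51, of cholesterol synthesis, had 30.1, 26.1 and 23.2 FPKM in NEC libraries and 14.6, 12.9 and 17.0 FPKM in controls (log2 change 0.80, SE 0.14, limma adjusted p = 0.0103). Cyp11a1, which makes pregnenolone and is known to feed local glucocorticoid synthesis in the gut, had 0.624, 0.788 and 0.822 FPKM in NEC and 4.07, 4.05 and 4.50 FPKM in controls (log2 change -1.58, SE 0.11, limma adjusted p = 0.000989). Cyp39a1, an oxysterol hydroxylase, had 0.751, 1.18 and 0.995 FPKM in NEC and 2.06, 2.32 and 2.20 FPKM in controls (log2 change -0.70, limma adjusted p = 0.0105). Cyp11a1 and Cyp39a1 averaged 0.745 and 0.975 FPKM in NEC and passed the filter only through their control level. Their difference between the groups was thus partly fixed by the filter. Ptgis, the prostacyclin synthase of vessels, had 0.584, 1.35 and 2.07 FPKM in NEC and 5.02, 3.61 and 3.78 FPKM in controls (log2 change -1.18, limma adjusted p = 0.0165). The call of Cyp39a1 was lost without control 2 (adjusted p = 0.0525), and that of Ptgis without control 1 (0.0635) or control 2 (0.0544). The vessel lining markers had 25.8 to 34.1 FPKM in NEC and 37.3 to 41.9 FPKM in controls, with 3 of 5 called lower, and their part in the Ptgis value was not tested.

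**Figure D5:**
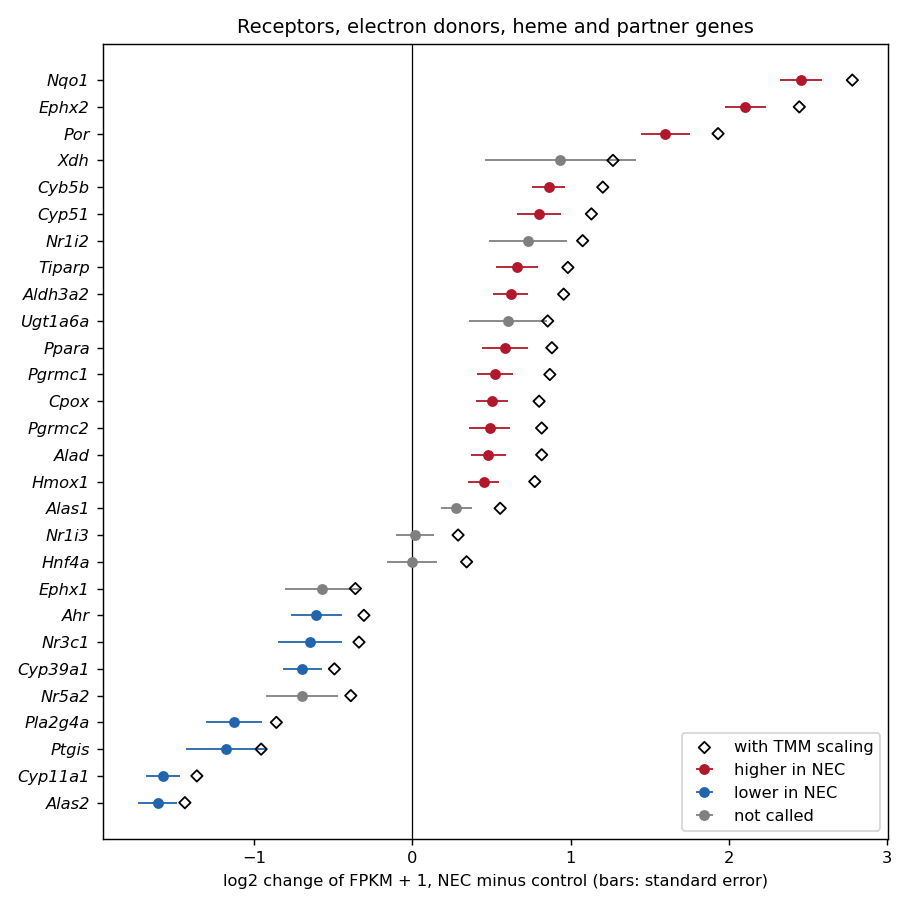
Log2 change of FPKM + 1 (NEC minus control) of receptors, electron donors, heme genes, lipid partners and P450 genes of other families, with standard errors as bars and the value after TMM scaling as open diamonds. Nqo1, Ephx2 and Por lie farthest to the right at 2.46, 2.10 and 1.60, and Alas2 and Cyp11a1 farthest to the left at -1.61 and -1.58.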

How the data were processed

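RNA was measured in 3 NEC and 3 control libraries. Per the labels' protocols, RNA with an integrity number above 7 went into paired-end TruSeq libraries. The submitters' processing notes name HISAT2, Cuffdiff, SAMtools 1.3.1 and build mm10. The sources used here do not give the annotation, other versions or strand setting. Values were read as the authors' deposited FPKM because Cuffdiff gives FPKM, though the table names no unit. Columns beginning with N were read as NEC. Of 55487 identifiers, 55227 matched GENCODE M21 on the same build, which gave symbols and coordinates. Depth was estimated from the steps of low values, of which 98.7% to 99.1% per library were whole fragments within 0.1.

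Log2(FPKM + 1) of the 15806 genes averaging 1 FPKM or more was fitted with limma 3.58.1 (R 4.3.3, mean-variance trend, group as the only term), with Benjamini-Hochberg adjustment over all of them and a threshold of 0.05. Fold changes on this scale understate the change of low genes. With 3 libraries against 3 an exact permutation test cannot go below p = 0.1 and was not used. The fit was tested on simulated data with the same spread in both groups and far fewer changed genes than were called here. These settings differ from the data, so the outcome is not used as support. Shared sequence is the share of 50-base stretches of a gene's transcripts found in another gene. Promoter sequences are from RefSeq (GRCm38.p6), with 62 of the 75 members matched. Figures were drawn with matplotlib 3.10.9.

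Members and lists were chosen with earlier results of these data known. Named genes are the markers Cyp3a11, Cyp2b10, Cyp1a1 and Cyp4a10, all members above the filter, the nearest members on each side of it and, per list, up to 4 tested genes with the smallest p plus Ahr, Ahrr, Nr1i2, Nr1i3, Ppara, Hnf4a, Por and Alas1. Alternatives were other pseudocounts, filters, scalings and weights, no trend, the replicate number as a block and each library left out. NEC 1 as the only NEC library was added after seeing the data.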

Additional observations from a re-analysis of the deposited data

How the results depend on the processing

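Over the planned settings and the added one, 1092 of 1350 single-gene values kept sign and side of the threshold, 59 gained a call, 133 lost one, and 63, of 25 genes not called in either setting, changed sign, among them those of Cyp2c68, Cyp2u1, Cyp2d22 and Cyp2c67 with TMM scaling. A sign change with a call in at least 1 of the settings was seen in 3: Cyp2u1 at 0.38 without NEC 1 (-0.34 to 0.38 over the libraries left out), Hnf4a at 0.34 with TMM scaling and Hnf4g at -0.23 with NEC 1 alone. The cause was not tested. TMM scaling called 2655 genes higher and 2264 lower over all genes, 7 regulators higher and 0 lower (1 at an unadjusted limma p under 0.05) and 1 heme gene lower. Quantile normalization gave 2202 higher and 2387 lower over all genes, 3 P450 members lower, 3 regulators higher and 0 lower (3 unadjusted), and 6 heme genes higher and 1 lower. Scaling without Rn7s1, a 7SL RNA gene (42.7% of all FPKM in NEC 1, 27.3% to 32.2% in other libraries), gave 640 higher and 3193 lower over all genes, 4 members higher, 0 regulators lower (3 unadjusted), 2 electron donors higher, 0 heme genes higher (1 unadjusted) and 1 lower, and 1 lipid partner higher. A mean of at least 5 FPKM left 8 detected members, 5 called higher and 1 lower, 1746 genes lower over all, 1 heme gene lower, 0 lipid partners lower (0 unadjusted) and 0 P450 genes of other families lower (1 unadjusted), with fewer genes tested. Without a filter 1 regulator was lower, and with sample weights 2 were higher. NEC 1 alone gave 1840 higher and 7565 lower over all genes, 9 members lower, 4 regulators higher and 12 lower, and 2 lipid partners lower. Leaving out 1 library at a time gave 481 to 1584 genes higher and 1004 to 5302 lower, with 4 to 9 members higher and 1 to 5 lower. The regulators then ranged over 0 to 2 higher and 0 to 3 lower, Ahr targets 1 to 3 higher, electron donors 2 to 5 higher, heme genes 0 to 3 higher and 1 to 5 lower, lipid partners 1 to 2 higher, and other P450 families 1 to 6 lower.

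Same-numbered libraries showed no shared deviation (correlations -0.0514, -0.00737 and -0.0743). With 3 libraries per group, this cannot exclude that the numbers pair them. With the replicate number as a block, 856 genes were called higher and 3230 lower, 6 members higher and 5 lower, and 1 heme gene lower. Cyp4f13 (adjusted p = 0.0618) and Cyp2d26 (0.0697) then lost their calls. For genes below 1 FPKM a few fragments decide the value: Cyp2c55 rested on 65, 58 and 41 fragments in NEC and 3, 4 and 2 in controls.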

Other observations

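Another 36 genes of families 1 to 4 carry names outside the rule, mostly pseudogenes with 6 protein-coding genes among them, and 0 of these had a mean of at least 1 FPKM.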
